A study of Mus musculus with 2 samples.

Results

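A set of 9 genes that encode transcription factors and cofactors of fibre type was followed through myofibers of the FDB (flexor digitorum brevis), which flexes the toes of the mouse and is made mostly of fast fibres. They were Six4, Eya1, Eya4, Tbx15, Sox6, Nfix, Maf, Tead1 and Prox1, chosen by name, and they are 9 of the 35163 genes in the count table. The muscle came from 1 untreated male C57BL/6J mouse older than 3 months. Myofibers were sorted by size, or cut into fragments as a pseudo-biopsy, and 763 cells on 8 plates were sequenced in 2 lanes by mcSCRB-seq, a plate-based method that counts each captured RNA molecule once by its unique molecular identifier (UMI). The members were read in the 171 cells with more than 5000 genes and less than 20% mitochondrial counts, 168 of them whole myofibers and 3 cut fragments. At the edges of the filters the kept cells had at least 5193 genes and at most 19.9% mitochondrial counts, and the nearest cells left out had 4808 genes or 20.1%.

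Each cell was placed in a fibre class by the largest of Myh1, Myh2, Myh4, Myh7 and Myh8, the genes of the myosin heavy chains that set contraction speed. By this rule 117 cells were fast 2X (Myh1 largest, 39180010 summed UMI counts), 51 were fast 2A (Myh2 largest, 11907400 counts), 2 were slow (Myh7 largest) and 1 was fast 2B (Myh4 largest). The median depth was 255726 UMIs per cell in fast 2X and 206510 in fast 2A, and no cell barcode was shared between the lanes. Because all cells come from 1 mouse, a class is 1 sample: no p-value was computed, and every interval below is a 95% limit that covers counting error only. Limits on a share of cells cover the drawing of cells within this mouse, and no spread between mice. Levels are the summed counts of a class per 1000000 counts (CPM), and a difference is called when the ratio of CPM between fast 2A and fast 2X is at least 1.5-fold, among genes with at least 200 counts over both classes. Levels are not compared between genes, which differ in length and capture.

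These proteins act at several layers of fibre identity. Homeodomain proteins of the SIX-family bind MEF3 sites and need EYA cofactors to activate fast muscle genes, and TBX15 is a T-box factor of glycolytic fibres. SOX6 represses slow-fibre genes in fast muscle, NFIX drives the fetal programme of muscle gene expression, the large MAF proteins promote the fast 2B programme, TEAD1 binds MCAT sites and is linked to slow contractile genes, and PROX1 is needed for the slow programme.

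Myofibre markers were high in both large classes. Acta1, Ckm and Ttn, the 3 markers of myofibers that the class rule did not use, summed to 90326 CPM in fast 2X and 99594 CPM in fast 2A. The 7 lists of markers of other cells each summed to between 14.2 and 85.6 CPM in fast 2X and between 14.6 and 78.2 CPM in fast 2A, with no marker at 0 in either class, and Cdh15 was not analysed here. Single cells stood apart, with up to 9418 CPM of smooth muscle and pericyte markers and 3082 CPM of Schwann and neural markers in fast 2X cells. The single fast 2B cell had only 30799 CPM of the 5 myofibre markers that include Myh1 and Myh2, which summed to 105506 CPM in fast 2X and 111506 CPM in fast 2A. It also had 2089 CPM of fibro-adipogenic and 654 CPM of Schwann and neural markers, and is described apart. Without the 6 cells that had over 1000 CPM of any such list, 2 members were again called lower and 0 higher, with Maf at -2.15 and Eya4 at -0.94.

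Fast 2A myofibers had less of the transcripts of Maf and Eya4 than fast 2X myofibers, and no member was called higher. Maf was 4.38-fold lower and Eya4 1.91-fold lower. Sox6 lay just short of the threshold at 1.49-fold lower, and Tbx15 was 1.37-fold lower. Tead1 was 1.20-fold higher, and the other 4 members differed by less than Tbx15. Thus 2 of 9 members were called lower, beside 10.9% of the 12625 genes tested, and 0 of 9 were called higher, beside 3.21%. The median log2 ratio was -0.09 over the members and -0.11 over all genes tested, so that a gene at 0 lies slightly above the middle of all genes. Scaling with TMM factors centred all genes at 0.00 and changed the background to 7.37% lower and 5.22% higher, and under it the direction of Eya1 turned.

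**Figure D1:**
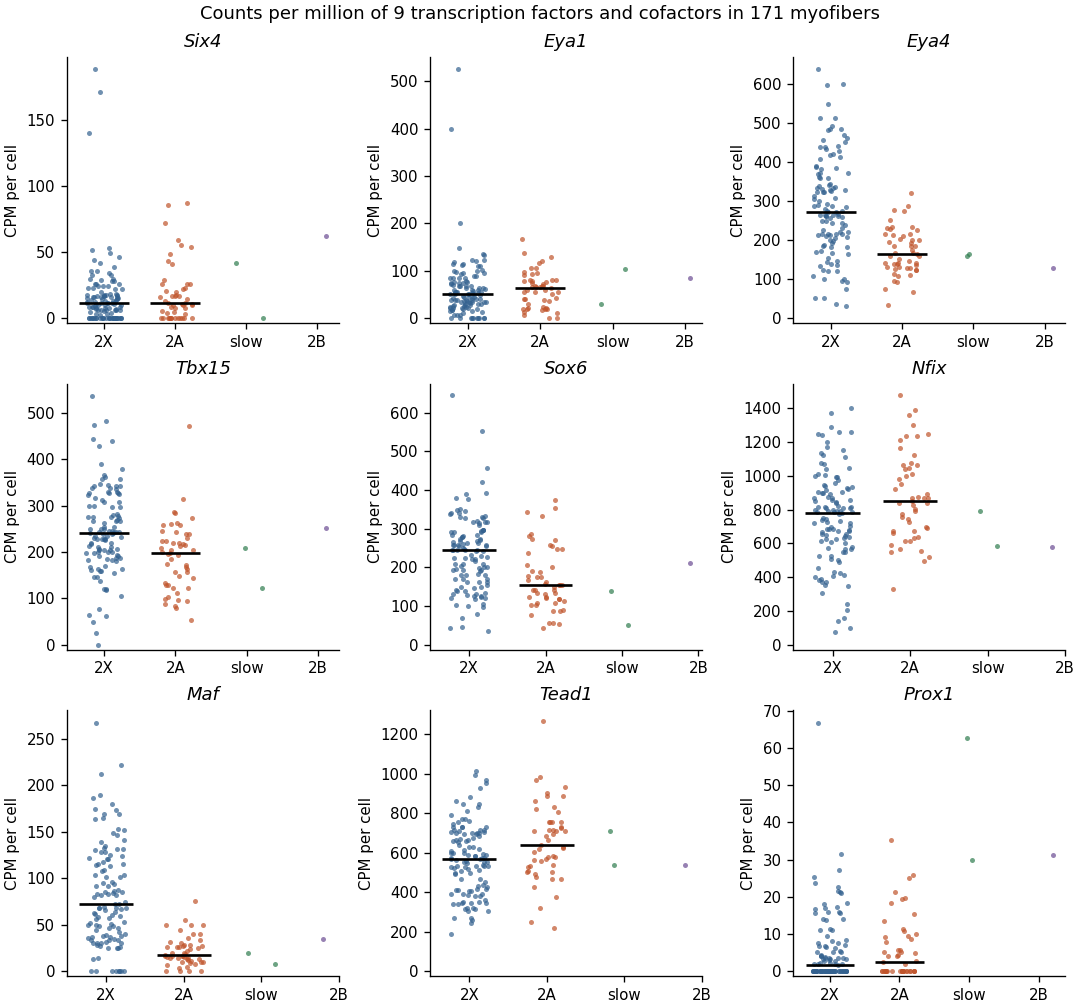
Level in CPM of each of the 9 genes in each of 171 kept myofibers, by fibre class, with 1 point per cell and a line at the median of the 117 fast 2X and the 51 fast 2A cells. Maf and Eya4 are lower in fast 2A, with medians of 17.6 and 163 CPM against 72.1 and 272 CPM. Prox1 is at 62.7 and 29.8 CPM in the slow cells, the latter on 3 UMIs, and at 31.1 CPM in the fast 2B cell.

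The SIX-EYA genes did not share a pattern. Six4 (ENSMUSG00000034460.9, GRCm38 chr12:73099609-73113456, minus strand) encodes a DNA-binding homeodomain protein. In single fast 2X cells it ranged from 0 to 188 CPM with a median of 11.5, and in fast 2A cells from 0 to 87.2 CPM with a median of 11.4. The classes overlapped almost entirely, and a UMI of Six4 was found in 76.1% of fast 2X cells (limits 67.3 to 83.5) and 74.5% of fast 2A cells (limits 60.4 to 85.7). Summed over cells, Six4 was 17.5 CPM (limits 16.2 to 18.9) in fast 2X and 21.2 CPM (limits 18.6 to 23.9) in fast 2A, a log2 ratio of 0.27 (limits 0.06 to 0.48). Six4 was higher in fast 2A in 6 of 8 plates, with ratios from -0.72 to 1.02. The ratio was 0.58 within lane 1 and 0.02 within lane 2, where 2 plates were higher (0.49 and 0.57) and 2 lower (-0.72 and -0.69). Over both lanes without plate 708, the plate with the highest ratio, it was 0.11.

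Eya1 (ENSMUSG00000025932.14, chr1:14168954-14310235, minus strand), a cofactor of the SIX-family, ranged from 0 to 525 CPM with a median of 50.8 in fast 2X and from 0 to 166 CPM with a median of 63.0 in fast 2A. The summed levels were 67.6 and 63.7 CPM, with a log2 ratio of -0.09 (limits -0.20 to 0.03). The ratio of the medians pointed the other way, at 0.31, and 5 of 8 plates had a higher level in fast 2A. No direction could be read for Eya1.

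Eya4 (ENSMUSG00000010461.15, chr10:23102963-23350786, minus strand) encodes another cofactor of the same family and behaved otherwise. It ranged from 29.9 to 638 CPM with a median of 272 in fast 2X, and from 33.6 to 320 CPM with a median of 163 in fast 2A. Of the 51 fast 2A cells, 47 lay below the fast 2X median, and 46 of the 117 fast 2X cells lay above the highest fast 2A cell. The summed level was 335 CPM (limits 329 to 341) in fast 2X and 175 CPM (limits 168 to 183) in fast 2A, for a log2 ratio of -0.93 with an upper limit of -0.87. Eya4 was lower in fast 2A within all 8 plates, with ratios from -1.19 to -0.59. Depth moved with the level of Eya4, since its CPM rose with the UMI count of a cell (Spearman's rho 0.45 over 171 cells). With every cell thinned to 28827 counts the ratio was -0.83. Thinning did not remove the association, since the thinned level still had a rho of 0.38 with the original UMI count. The other genes of the family, Eya2 and Eya3, had log2 ratios of 0.30 and -0.24 and were not called.

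Sox6 (ENSMUSG00000051910.13, chr7:115470872-116038796, minus strand), the repressor of slow-fibre genes, ranged from 34.1 to 644 CPM with a median of 244 in fast 2X and from 42.8 to 375 CPM with a median of 153 in fast 2A. The classes overlapped widely, though 39 of 51 fast 2A cells lay below the fast 2X median. Summed levels were 257 CPM (limits 252 to 262) and 173 CPM (limits 165 to 180), with a log2 ratio of -0.57 (limits -0.64 to -0.51) against a threshold of -0.58. Sox6 was lower in fast 2A in 8 of 8 plates, from -0.78 to -0.07. The ratio was -0.44 in lane 1 and -0.66 in lane 2, so the call depends on the lane. Of its relatives, Sox13 was called lower at -0.73 (limits -1.19 to -0.29) on 51 and 278 counts, and Sox5 was at -0.36.

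Eya4 was called lower, Sox6 lay just short of the threshold, and Six4, of the family whose proteins work with EYA cofactors, was not lower. For this reason the promoter windows of Six4, Eya4 and Sox6 are shown. They are the 250 bases before the first listed RefSeq start in GRCm38.p6, on the strand of the gene; capitals mark an exact match, on either strand, to the letters of one of 7 motifs.
Six4 chr12:73113246-73113495: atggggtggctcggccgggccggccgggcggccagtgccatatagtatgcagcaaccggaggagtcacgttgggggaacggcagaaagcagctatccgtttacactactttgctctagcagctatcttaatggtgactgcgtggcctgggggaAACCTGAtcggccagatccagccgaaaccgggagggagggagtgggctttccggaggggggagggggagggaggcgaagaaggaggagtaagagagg
Eya4 chr10:23349944-23350193: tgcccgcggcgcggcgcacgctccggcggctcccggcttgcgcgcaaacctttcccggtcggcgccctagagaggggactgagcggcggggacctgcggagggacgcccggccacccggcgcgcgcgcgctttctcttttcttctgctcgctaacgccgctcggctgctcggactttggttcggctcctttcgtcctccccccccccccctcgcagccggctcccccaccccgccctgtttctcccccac
Sox6 chr7:116038745-116038994: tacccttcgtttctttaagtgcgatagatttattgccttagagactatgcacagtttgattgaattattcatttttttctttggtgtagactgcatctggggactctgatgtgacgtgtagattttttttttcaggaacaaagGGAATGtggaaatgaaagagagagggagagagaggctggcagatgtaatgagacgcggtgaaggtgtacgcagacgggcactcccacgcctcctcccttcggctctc

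The motifs searched were MEF3, bound by SIX-family proteins (TCAGGTT), MCAT, bound by TEAD proteins (CATTCC), a SOX motif (AACAAT), a T-box half-site (AGGTGTGA), an NFI half-site (TTGGCA), a large MAF half-site (TGCTGAC) and an E-box (CAGCTG). The Six4 window held the MEF3 letters on the opposite strand, starting 97 bases before the start, and 3.49% of all 32851 windows of this length held them. In the Sox6 window the MCAT letters stood on the opposite strand 107 bases before the start, with 12.6% of all windows holding them. None of the 7 letter runs was found in the Eya4 window, which was 74.0% G and C compared with 62.0% for Six4 and 45.2% for Sox6. Of the 9 members, 5 had a window, those of Nfix and Prox1 being the other two, and neither of their first windows held a match. Further windows were listed: Sox6 had 6 in all, Nfix 4, and Six4, Eya4 and Prox1 2 each. Of the 6 of Sox6, 2 held the MCAT letters, and 1 each those of MEF3, SOX, the NFI half-site and the E-box. Of the 4 of Nfix, 1 held the E-box letters. Over all windows the shares were 9.42% for the SOX motif, 12.3% for the NFI half-site and 13.0% for the E-box. The Eya4 window shown lies wholly inside the gene span given above, and those of Six4 and Sox6 partly inside. No match says only that these letters are not in this window.

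Tbx15 (ENSMUSG00000027868.11, chr3:99240381-99354259, plus strand), the T-box factor of glycolytic fibres, ranged from 0 to 537 CPM with a median of 241 in fast 2X and from 54.0 to 472 CPM with a median of 199 in fast 2A. The classes overlapped, with 40 of 51 fast 2A cells below the fast 2X median. The summed level was 254 CPM (limits 249 to 259) in fast 2X and 185 CPM (limits 177 to 193) in fast 2A, for a log2 ratio of -0.46 (limits -0.53 to -0.39). In 7 of 8 plates Tbx15 was lower in fast 2A. The other T-box genes with enough counts, Tbx1 and Tbx3, were at -0.25 and -0.03 and were not called.

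Nfix (ENSMUSG00000001911.16, chr8:84699876-84800344, minus strand) gave the most counts of the members, 39435 in the kept cells. It ranged from 74.8 to 1401 CPM with a median of 778 in fast 2X and from 332 to 1476 CPM with a median of 849 in fast 2A. The summed levels of 748 and 802 CPM gave a log2 ratio of 0.10 (limits 0.07 to 0.13). That ratio is small beside the spread of plates, which ran from -0.31 to 0.39 with 4 plates on each side. Nfia, Nfib and Nfic had ratios from -0.31 to -0.12, and no NFI gene was called.

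Maf (ENSMUSG00000055435.6, chr8:115682942-115707794, minus strand) showed the widest difference of the 9 members. It ranged from 0 to 267 CPM with a median of 72.1 in fast 2X and from 0 to 75.3 CPM with a median of 17.6 in fast 2A. All but 1 of the 51 fast 2A cells lay below the fast 2X median, and 56 of 117 fast 2X cells lay above the highest fast 2A cell. The summed level was 97.9 CPM (limits 94.9 to 101) in fast 2X and 22.3 CPM (limits 19.7 to 25.2) in fast 2A, for a log2 ratio of -2.13 (limits -2.32 to -1.95). Only 0.0792% of the genes tested had a lower ratio. Maf was lower in fast 2A within every one of the 8 plates, from -2.70 to -1.76. Its CPM also rose with the UMI count of a cell, at a Spearman's rho of 0.46 over fast 2X and 0.07 over fast 2A cells. With every cell thinned the ratio was -1.94.

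A UMI of Maf was found about as often in both classes, in 93.2% of fast 2X cells (limits 87.0 to 97.0) and 92.2% of fast 2A cells (limits 81.1 to 97.8). With each cell thinned to 28827 counts, the depth of the shallowest kept cell, the shares were 82.1% (limits 73.9 to 88.5) and 47.1% (limits 32.9 to 61.5). At equal depth a UMI of Maf was thus found in a smaller share of the fast 2A cells of this mouse. Maf is also made by macrophages. The 6 macrophage and leukocyte markers together were 20.3 CPM in fast 2X and 17.6 CPM in fast 2A, and the highest single marker was 4.85 CPM; their part in the result was not tested.

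Mafa, another large MAF gene, was lower in fast 2A too, and of the small MAF genes Maff and Mafk were level. Mafa was 55.1 CPM in fast 2X and 26.8 CPM in fast 2A, a log2 ratio of -1.04 (limits -1.21 to -0.87), and was lower in 7 of 8 plates. Maff and Mafk, which lack the activation domain of the large proteins, had ratios of -0.03 (limits -0.21 to 0.14) and 0.03 (limits -0.13 to 0.19). Mafg and Nrl had too few counts to be called.

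Tead1 (ENSMUSG00000055320.17, chr7:112679318-112906807, plus strand) encodes the MCAT-binding protein and had a small excess in fast 2A. It ranged from 190 to 1015 CPM with a median of 571 in fast 2X and from 222 to 1268 CPM with a median of 640 in fast 2A, and the classes overlapped almost fully. Summed levels of 597 CPM (limits 589 to 605) and 715 CPM (limits 700 to 730) gave a log2 ratio of 0.26 (limits 0.22 to 0.30). That is under the threshold, but Tead1 was higher in 8 of 8 plates, from 0.12 to 0.57. Its CPM rose with the UMI count of a cell, at a Spearman's rho of 0.58 over fast 2A and 0.23 over fast 2X cells. The ratio was 0.26 with every cell thinned and 0.17 for the medians, and the part of depth was not tested. The antisense gene 2310014F06Rik overlaps Tead1 and had 2544 counts against 32434, with a ratio of 0.55, and without a stated strand setting reads of the pair cannot be told apart. Vgll2, a muscle cofactor of TEAD proteins, was at 0.24 (limits 0.16 to 0.31), and none of the 8 tested genes of the TEAD list was called.

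**Figure D2:**
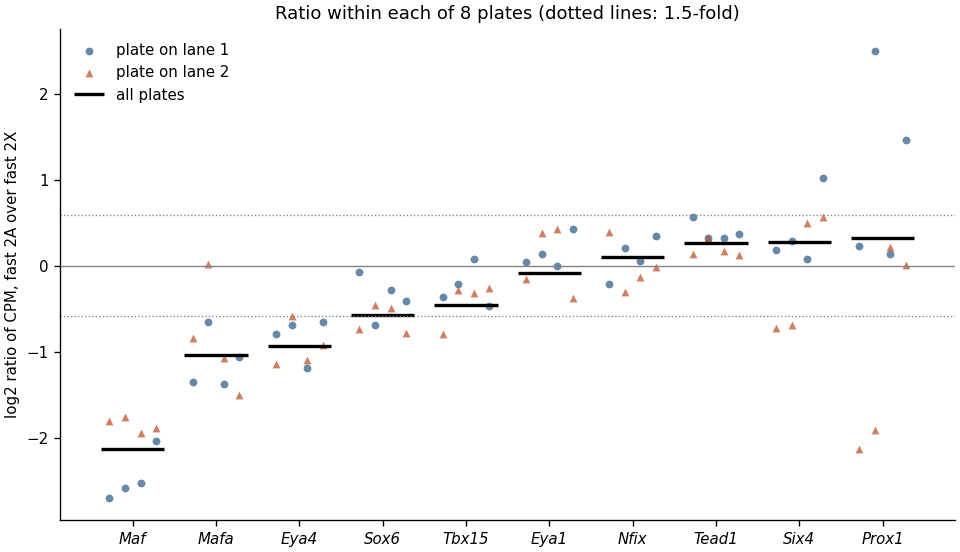
Log2 ratio of CPM between fast 2A and fast 2X cells within each of the 8 plates (circles for lane 1, triangles for lane 2) and over all plates (bars), for the 9 genes with Mafa added. All plates lie below 0 for Maf, Eya4 and Sox6 and above 0 for Tead1, and Prox1 runs from -2.13 to 2.49.

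Prox1 (ENSMUSG00000010175.13, chr1:190118035-190170714, minus strand), the factor of the slow programme, was near the limit of detection in fast cells. It ranged from 0 to 66.7 CPM with a median of 1.71 in fast 2X and from 0 to 35.3 CPM with a median of 2.46 in fast 2A. Summed levels were 5.46 CPM (limits 4.75 to 6.24) on 214 counts and 6.80 CPM (limits 5.40 to 8.45) on 81 counts, so the log2 ratio of 0.32 (limits -0.07 to 0.69) did not exclude 0. The direction also turned with the lane, at 0.87 in lane 1 and -0.65 in lane 2. A difference between the fast classes was not detectable at this depth.

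Both slow cells held more Prox1 than nearly all fast cells. The first slow cell had 30 UMIs of Prox1, or 62.7 CPM (limits 42.3 to 89.4), a level reached by 0 of 51 fast 2A and 1 of 117 fast 2X cells. In the second, 3 UMIs gave 29.8 CPM (limits 6.15 to 87.1), reached by 1 fast 2A and 2 fast 2X cells. Together they had 57.0 CPM (limits 39.2 to 80.0). Prox1 is also known from lymphatic endothelium, and of the 5 lymphatic markers Lyve1, Flt4 and Mmrn1 were at 0 counts in both slow cells, while Pdpn had 18 and Reln 13. Together the 5 summed to 53.5 CPM in the slow cells, against 33.0 in fast 2X and 23.9 in fast 2A. The satellite cell markers summed to 55.2 CPM in the slow cells, against 14.2 and 17.5. The part of such cells in the Prox1 level was not tested. The antisense gene Prox1os, with 131 counts in the kept cells, had 0 in the slow cells.

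In Eya4, Maf and Sox6 both slow cells lay nearer the fast 2A than the fast 2X medians. In the first and second slow cell Eya4 was 165 and 159 CPM, Maf was 8.35 and 19.9 CPM on 4 and 2 UMIs, and Sox6 was 140 and 49.7 CPM. All of these lay below the fast 2X medians, whereas Tead1 was 712 and 537 CPM, on either side of the fast 2X median. Tbx15 was 123 and 209 CPM, Nfix 792 and 586 CPM, Eya1 104 and 29.8 CPM, and Six4 41.8 and 0 CPM. With 2 cells there is no measure of spread. The fast 2B cell had 9 UMIs of Maf (limits 16.0 to 66.5 CPM), 128 CPM of Eya4, 253 CPM of Tbx15, 210 CPM of Sox6, 580 CPM of Nfix, 541 CPM of Tead1, 85.6 CPM of Eya1, 62.3 CPM of Six4 and 31.1 CPM of Prox1 on 8 UMIs. Its high levels of fibro-adipogenic and Schwann markers stand beside these values. Its lymphatic endothelial markers were at 370 CPM, against 33.0 in fast 2X and 23.9 in fast 2A. Endothelial markers were at 167 CPM, against 49.6 and 43.1, and macrophage and leukocyte markers at 125 CPM, against 20.3 and 17.6. The part of other cells in the values of the members was not tested.

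Many fibres expressed both fast myosins, so the members were also read over the share of Myh2 in the sum of Myh1 and Myh2. The 4 bins held 48, 59, 16 and 45 cells. Maf was 119 CPM (limits 115 to 124) below 20% Myh2, 72.8 CPM (limits 68.6 to 77.2) from 20 to 40%, 45.2 CPM (limits 38.4 to 52.9) from 40 to 60% and 20.6 CPM (limits 18.0 to 23.6) from 60%. The limits of neighbouring bins did not overlap, and hybrid fibres lay between the classes. Eya4 went from 362 through 305 and 233 to 174 CPM, Sox6 from 276 through 236 and 211 to 168 CPM, and Tbx15 from 271 through 230 and 214 to 186 CPM. Tead1 went the other way in summed counts, from 579 through 615 and 676 to 718 CPM. Nfix lay between 729 and 790 CPM, and Prox1 between 4.94 and 6.75 CPM with overlapping limits. Medians over single cells did not move steadily for Tead1 (574, 552, 683 and 631 CPM) or Tbx15 (261, 216, 228 and 199 CPM). The Spearman correlation of Tead1 with the Myh2 share was 0.11 within fast 2X and 0.11 within fast 2A. Depth moved along with the bins, the median UMI count being 330043 in the first bin and 199607, 171237.5 and 193406 in the next, and its part was not tested.

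**Figure D3:**
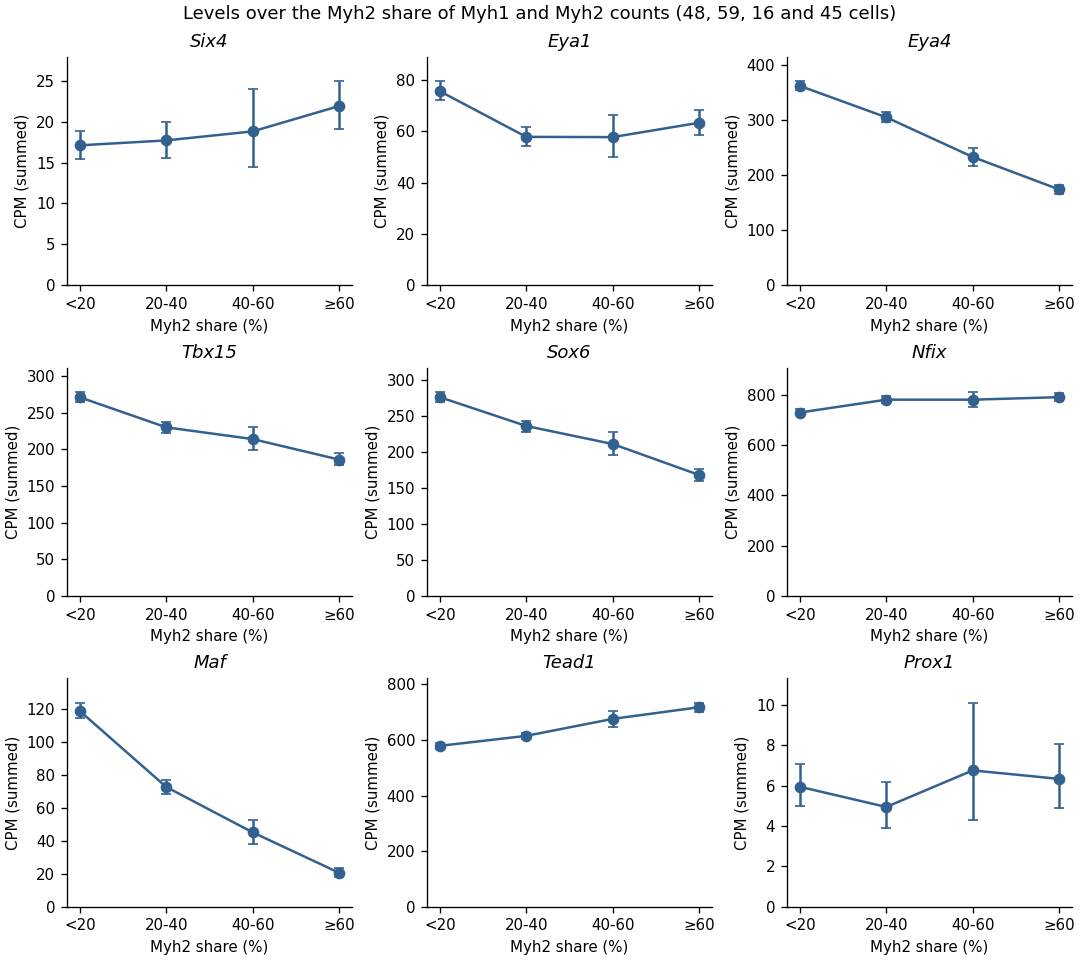
Summed CPM of each gene in 4 bins of the Myh2 share of Myh1 and Myh2 counts, with 95% Poisson limits as bars; each vertical axis starts at 0. Maf goes from 119 to 20.6 CPM and Eya4 from 362 to 174 CPM across the bins, and Tead1 from 579 to 718 CPM.

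Maf was also set against the Myh2 share inside each class. Over the 117 fast 2X cells its CPM had a Spearman correlation of -0.64 with the Myh2 share, and -0.52 after thinning to equal depth; over the 51 fast 2A cells, with a median of 4 counts of Maf per cell, the values were -0.45 and -0.31, which are weak for counts this sparse and are no finding. Eya4 and Tbx15 had -0.35 and -0.30 in fast 2X, and -0.07 and -0.12 in fast 2A. Among the members themselves, Eya4 went with Maf (0.54) and Sox6 (0.53) over all 171 cells, at 0.43 and 0.42 over fast 2X cells alone, and at 0.28 and 0.32 there after thinning. Six4 and Eya4 had 0.20 over all cells. These correlations are across cells of 1 mouse that share libraries and differ in depth, and they are given as descriptions.

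Slow-type and fast-type muscle genes, some of them known targets of these factors, were also compared. The slow-type genes differed strongly between the classes, and the fast-type genes differed less. Of 11 slow-type sarcomere genes, all 11 were called higher in fast 2A, beside 3.21% of all genes tested, with a median log2 ratio of 2.15. Fast 2A cells differed widely, from 3656 to 36576 CPM of these genes together, with a median of 8631. The 2 slow cells had 30727 and 40415 CPM, and fast 2X cells 965 to 6735 CPM. Tnnt1 (3.51), Myl2 (3.15), Myl3 (2.90) and Tpm3 (2.54) had the largest ratios; the last was higher in only 5 of 8 plates. Of 16 fast-type genes, 8 were called lower, beside 10.9% of all genes tested, and none higher, with a median of -0.59. The largest ratios were those of Mybpc2 (-2.13), Actn3 (-1.74), Pvalb (-1.61) and Gpd1 (-1.33). These genes describe the classes and were not counted as members.

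Beyond counting error, the coefficient of variation over fast 2X cells was 21.7% for Tead1, 32.5% for Eya4 and 39.1% for Maf. Within a class the members followed these genes loosely. Over fast 2X cells the correlation of Maf was -0.38 with the summed slow-type genes and 0.30 with the fast-type genes, and -0.28 and 0.20 after thinning. Nfix went with the fast-type genes inside both classes, at 0.45 in fast 2X and 0.57 in fast 2A, and at 0.44 and 0.43 after thinning, although its summed level differed little between the classes. Sox6 had -0.19 and -0.22 with the slow-type genes in the same 2 classes, and -0.22 and -0.06 after thinning. The values for Maf and Sox6 are weak and are no finding. The CPM of Nfix also had a correlation of -0.49 with the mitochondrial share over all 171 cells. Over the fast 2A cells it had -0.44 with depth. The part of these in the Nfix values was not tested, and those values describe cells of 1 mouse.

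Across the families of the 9 genes, 39 genes were taken, 30 had at least 200 counts, and 4 were called lower in fast 2A (Maf, Mafa, Eya4 and Sox13) with none called higher. Over all genes tested the shares were 10.9% lower and 3.21% higher, so the count for the families lies near the background. The median log2 ratio was -0.15, close to -0.11 over all genes. Maf and Mafa are large MAF genes. Because 6 members span at least 100 kb of genome, they were also set beside the 2552 tested genes of such length, of which 10.4% were called lower with a median of -0.15. Of the 6 long members 1, Eya4, was called lower.

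**Figure D4:**
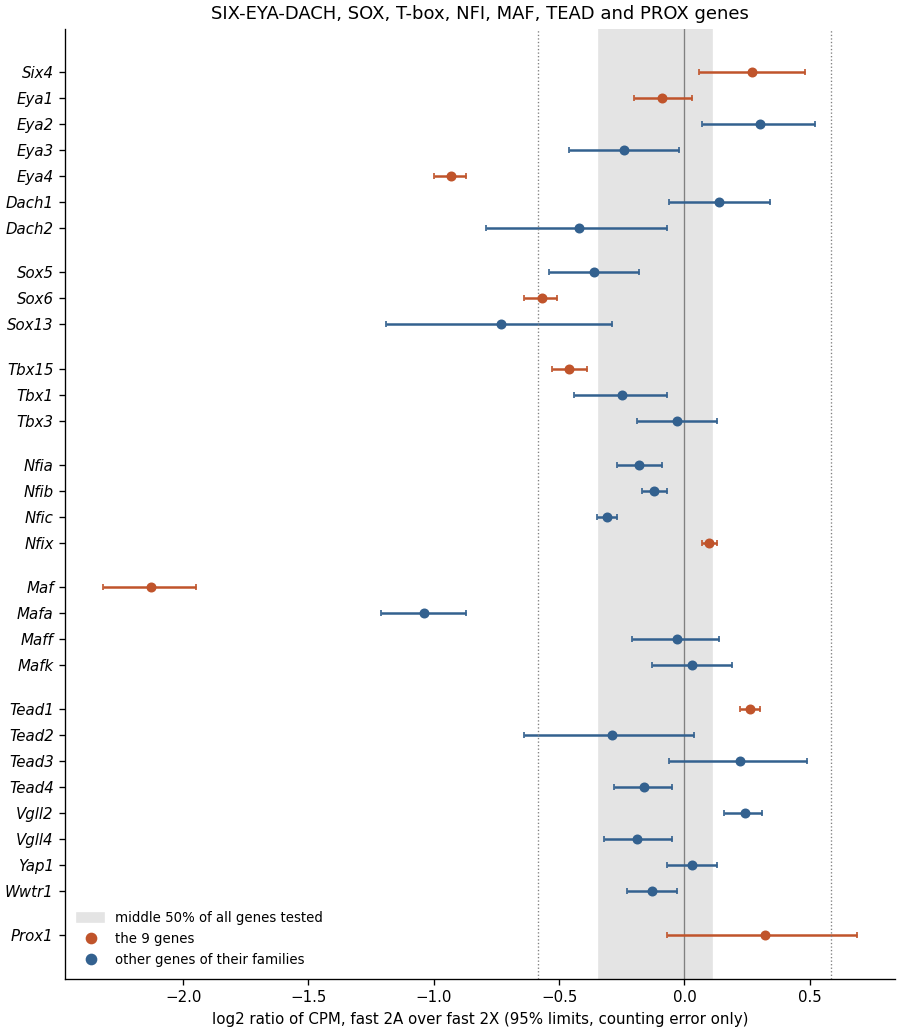
Log2 ratio of CPM between fast 2A and fast 2X for the 30 tested genes of the 7 families, with 95% limits that cover counting error only; the grey band holds the middle 50% of all 12625 tested genes and the dotted lines mark 1.5-fold. Maf, Mafa and Eya4 lie clear of the band and of the lower line, at -2.13, -1.04 and -0.93.

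The genes most like each member in pattern were named by Spearman correlation of CPM over the 171 kept cells, among 4765 genes with a median of at least 5 counts. Maf went with Atp1b2 (0.70), Pvalb (0.70), which buffers calcium in fast fibres, and Actn3 (0.69), the actinin of fast fibres. Eya4 went with Phka1 (0.65), a subunit of phosphorylase kinase, Trdn (0.63), a protein of the calcium release site, and Pde4d (0.61), a phosphodiesterase. For Sox6 they were Pde4d (0.58), Kcnq5 (0.54) and Eya4 itself (0.53). Tead1 was closest to Agbl1 (0.61), Dmd (0.55) and Zbtb20 (0.54), Nfix to Aes (0.63), Gm11953 (0.60) and Nfic (0.59), Tbx15 to Ampd1 (0.51), Gm5524 (0.51) and Cacna2d1 (0.50), and Eya1 to Tmem117 (0.57), Dmd (0.56) and Mlip (0.52). Six4 and Prox1, with medians of 3 and 1 counts per cell, were too sparse. Of the 21 names, 12 were named again over fast 2X cells alone and 10 after thinning, and the others changed with the choice of cells or the depth.

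The members were also found in the 592 cells that failed the filters. These had a median of 16032 UMIs and 48.0% mitochondrial counts, so levels there are CPM of the counts that are not mitochondrial. In these cells 4 members were at least 1.5-fold lower than in the kept cells, beside 12.0% of 13921 genes with at least 200 counts. These were Eya1, Tbx15, Nfix and Maf, at 45.4, 155, 429 and 54.5 CPM against 71.3, 252, 808 and 84.4. Of the members Prox1 alone was at least 1.5-fold higher, at 16.7 with a lower limit of 13.9, against 6.88 (limits 6.17 to 7.66), beside 36.5% of all genes. The log2 ratio of the cells left out to the kept cells was 0.20 at the median of all genes. Six4 was at 21.5 (limits 18.3 to 25.1), and its level in the kept cells lies within these limits.

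The contrast between classes was smaller in the cells left out for Maf and Tead1, with limits that did not overlap those of the kept cells. For Eya4 and Sox6 it was smaller too, but the limits overlapped, and it was not smaller for all members. Of the cells left out, 493 were placed with Myh1 and 82 with Myh2 as the largest gene. They had a median of 65 and 63 myosin counts per cell, compared with 3697 and 2291 in the kept cells. Cells with no myosin count, or with Myh1 tied for the largest, would fall with Myh1 by the rule, and were not counted. The genes that set the classes also differed less, Myh1 at -1.05 against -1.91 in kept cells and Myh2 at 0.96 against 1.43. Of the 7 members with at least 200 counts 1 was called lower, Eya4 at -0.65 (limits -0.88 to -0.42), beside 8.95% of 5577 genes. In kept cells Eya4 was at -0.90 (limits -0.97 to -0.83) on the same scale. Maf had a log2 ratio of -0.10 (limits -0.54 to 0.32) on 55 and 315 counts, and the limits do not reach the -2.10 of the kept cells on the same scale. Sox6 was at -0.28 (limits -0.52 to -0.06) against -0.54 (limits -0.61 to -0.47) in kept cells. Tead1 was at -0.06 (limits -0.19 to 0.07) against 0.29 (limits 0.26 to 0.33). Nfix was at 0.13 and 0.14, and Tbx15 was at -0.54 against -0.42 and Eya1 at -0.24 against -0.05. The slow-type genes had a median of 1.05 against 2.19 in kept cells, and the fast-type genes -0.14 against -0.56. Of 11 slow-type genes 9 were above 0, with Myh7b at 1.08 against 0.97, while Tpm3 and Atp2a2 lay below 0 at -0.47 and -0.62 against 2.58 and 1.24. Prox1 was at 1.07 (limits 0.42 to 1.69) against 0.35, on 31 and 79 counts, below the minimum for a call. Six4, also below it on 21 and 133 counts, was at -0.24 (limits -0.98 to 0.43) against 0.31.

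**Figure D5:**
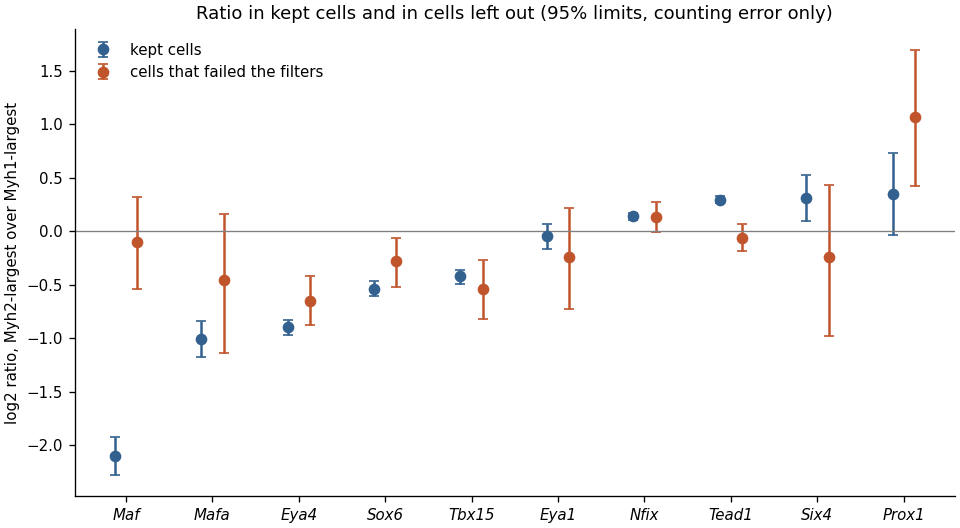
Log2 ratio between cells with Myh2 and cells with Myh1 as the largest myosin gene, per count that is not mitochondrial, in the kept cells (51 and 117) and in the cells that failed the filters (82 and 493); bars are 95% limits for counting error only. Maf is at -2.10 in kept cells and -0.10 in the others, while Eya4 and Tbx15 lie below 0 in both.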

How the data were processed

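Single myofibers of the FDB of 1 mouse were profiled by mcSCRB-seq. Per the labels and the study's methods, the authors mapped reads with STAR 2.5.4b to GRCm38 (mm10) joined with spike-in sequences and tabulated UMIs per gene with featureCounts inside zUMIs. The deposited values were whole UMI counts per gene and cell, with 10 further rows describing each cell. How reads were assigned by strand was not given in the sources used here. The gene rows held a median of 96.9% of each kept cell's stated UMIs. All 763 cells lay in 1 table that pools both lanes, and the lane and plate of a cell were taken from its description. No sample was removed.

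Cells with more than 5000 genes and less than 20% mitochondrial counts were kept and placed in a class by the largest of 5 Myh genes. Counts were summed per class and divided by the class total. Limits at 95% were exact: Poisson for levels, conditional binomial for ratios and Clopper-Pearson for shares of cells. Calls required 1.5-fold and 200 counts, and the Myh genes were left out of the background. Doublets were not called, since single fibres were sorted into wells. Cells of 1 mouse are not replicates, and the study's test across cells was not used. The 9 members were always named; genes of their families were named when past 1.5-fold, the 4 largest ratios of the slow-type and fast-type lists were named, and so were the 3 genes most like each member. A few further relatives, such as Eya2, Sox5, Tbx1 and Vgll2, were named after their values were seen. Some genes of these families are not reported here and were left out of the family counts. The members and lists were chosen with earlier results of these data known. Gene positions came from the GENCODE annotation of GRCm38 and promoters from RefSeq. The ratio script was checked on simulated data. Alternatives covered scaling, thinning, class rules, cell filters, lanes, plates, count minimums and folds. Python 3.11.15, numpy 2.4.6, pandas 2.3.3 and scipy 1.17.1 were used.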

Additional observations from a re-analysis of the deposited data

How the results depend on the processing

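The count of members called lower in fast 2A was 2 and that called higher was 0, and each kept its value, or stayed within 1.5 times of it, in 33 of 38 alternatives, one of which, leaving out cells rich in markers of other cells, was chosen after seeing the data. Lower calls numbered 4 at the lower fold tried, 1 at a fold of 2, 6 within plate 709 and 4 within plate 710, and between 2 and 4 when 1 lane was left out, the 4 coming without lane 1. Higher calls numbered 2 when the lesser of Myh1 and Myh2 had to be under 20%, 1 with slow and fast 2A cells pooled, 1 within plate 706, 2 within plate 708, and between 0 and 1 when 1 lane was left out, the 1 coming without lane 2. Maf, Eya4 and Mafa were past 1.5-fold lower in all 28 alternatives other than those within a single plate, with Maf from -2.87 to -1.90 and Eya4 from -1.14 to -0.73. Within a single plate the ratio turned to 0.02 for Mafa in plate 710. Sox6 was past it in 9 of 28 and Tbx15 in 1 of 28, and Tead1 was above 0 in 28. Prox1 ran from -0.65 to 0.87 with the lane. No paired analysis was possible because the result comes from no test; ratios within the 8 plates, each with cells of both classes, are given as values. With 1 mouse the limits cover counting alone, and Prox1 and Six4 are limited by depth. The cause of these changes was not tested.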
